A study of Mus musculus with 6 samples.

Results

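The nuclear genes of mitochondrial protein import, folding and degradation were described in the anterior prostate (AP) of Notch1 over-activated (OEx) and control (Ctrl) mice. Members were the rows whose symbol begins with Timm or Tomm and a digit, together with named genes of the import motor, the matrix chaperones, the presequence peptidases, the mitochondrial proteases and the prohibitins. This gave 47 of the 55076 rows in each table, 26 by the symbol pattern and 21 by name, of which 46 are annotated as protein coding and 1, Tomm6os, as an antisense RNA. OEx mice carried Pbsn-Cre and Rosa26 N1ICD/+, so that the intracellular domain of Notch1 (N1ICD) was made where the probasin promoter drives Cre, in the prostatic epithelium. Ctrl mice carried Rosa26 N1ICD/+ without Cre, and their sample labels give the genotype as wild type. Both groups were 20-week-old males with 3 mice each and 1 library per mouse, made from total RNA of the whole AP after the secretions had been removed.

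Nearly all mitochondrial proteins are made in the cytosol and enter through the TOM complex of the outer membrane. The small TIM chaperones then carry hydrophobic precursors across the intermembrane space, the TIM22 complex inserts carriers into the inner membrane, and the TIM23 complex passes proteins with a presequence to the matrix, where the mtHSP70 motor pulls them in. Peptidases remove the presequence, the HSP60 and HSP10 chamber folds the product, and the LONP1, CLPXP and inner membrane AAA proteases remove damaged proteins. Luminal cells of the prostate are secretory cells, and the study asked how over-activated Notch1 signaling acts on the prostatic epithelium and the growth of the gland.

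Values were FPKM (fragments per kilobase of gene, divided by a denominator for each mouse), and this denominator was not the read total. Reads recovered from the values numbered 14772005 to 17009325 per OEx mouse and 17236735 to 18655462 per Ctrl mouse. By order of replicate, the ratio of denominator to recovered reads was 1.34, 1.34 and 1.22 for OEx. For Ctrl this ratio was 0.726, 0.730 and 0.815. The share of reads on the most abundant gene was 14.2% to 22.0% per Ctrl mouse and 1.04% to 1.12% per OEx mouse, so the scaling between mice bears on every direction given here. Notch1 was measured at 41.9, 47.6 and 78.9 FPKM in OEx mice and 5.18, 5.55 and 3.34 FPKM in Ctrl mice. Within each group, replicate 3 stood apart from replicates 1 and 2, which differed from each other with a chi-square per degree of freedom of 3.47 (OEx) and 2.84 (Ctrl) against 45.5 to 79.1 for the other pairs within a group. The labels do not say which mice were handled together, and p-values measure the spread between these samples only. Ctrl replicate 3 carried 16128 FPKM of 8 seminal vesicle genes, against at most 4.36 FPKM in any other mouse. Summed luminal markers ran from 3619 to 6657 FPKM in OEx mice and from 17756 to 21555 FPKM in Ctrl mice, with 4 of 7 called lower and none at 0. Basal markers ran from 6.79 to 15.9 FPKM against 212 to 249 FPKM, with 4 of 4 called lower, and smooth muscle markers from 419 to 505 FPKM against 1252 to 2671 FPKM, with 6 of 6 called lower. Endothelial markers ran from 6.67 to 8.04 FPKM against 18.6 to 24.0 FPKM, with 1 of 5 called lower. For comparison, 15.7% of all tested rows were called lower. None of the fibroblast or immune markers was called, and their sums were lowest in OEx replicate 3, at 25.1 and 14.6 FPKM. The OEx ranges were wide and reached 252 and 198 FPKM, against 53.1 to 94.7 and 29.6 to 68.1 FPKM in Ctrl mice. The median log2 fold changes were 1.08 for the 6 fibroblast markers and 0.91 for the 3 immune markers tested. The neural markers summed to at most 2.81 FPKM in any mouse and were not tested. In bulk tissue, fewer cells of a type and less RNA per cell cannot be told apart, and the part of these shifts in the values below was not tested.

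Transcripts of the import and quality control machinery were mostly lower in OEx mice than in Ctrl mice on the deposited scale. The comparison was a limma fit to log2(FPKM + 1) for the 12833 rows that averaged 1 FPKM or more, and a gene was called at FDR below 0.05 (Benjamini-Hochberg) together with a fold change greater than 2. Of the 47 members, 43 were tested. Called lower were 15 members, 34.9% of those tested, where 15.7% of all tested rows were called lower. Called higher were 2 members, 4.65% of those tested, where 12.9% of all rows were called higher. Without the fold criterion, an FDR below 0.05 was reached by 31 lower and 5 higher members, against 36.5% and 30.7% of all rows, and 7 did not pass. All OEx mice lay below all Ctrl mice for 31 members (72.1%) and above them for 6, where 38.9% and 33.4% of all rows did so.

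The median log2 fold change of the members was -0.87, and that of all tested rows was -0.078. Relative to that median of all rows, the members were 0.79 lower on the log2 scale, and the individual values ran from -2.06 for Timm8b to 1.15 for Clpx. Log2 fold changes fell with expression level, with a Spearman rho of -0.36 across all rows with an annotated length and -0.47 across members. Among rows averaging at least 5 FPKM, the median of all rows was -0.35, and the members were at -0.52 relative to it. There, 14 members and 1564 of 7165 rows were called lower. The absolute direction depended on the scaling between mice. Scaled to the totals of recovered reads, the median of all rows moved to 0.56 and that of the members to -0.16, so that 2 members were called lower, where 4.59% of all rows were, and 4 higher, where 30.6% were. With totals of FPKM, 2 and 7 members were called, against 4.78% and 39.6% of all rows, and 3 and 4 when these totals left out the 20 most abundant genes, against 5.49% and 27.3%. Upper-quartile scaling called 23 and 1, against 19.4% and 10.6%. On the deposited scale and without OEx replicate 3, 15 members were called lower and 1 higher, against 2032 and 1726 of 12833 rows. Without Ctrl replicate 3 these were 16 and 2 members, against 2037 and 1685 rows. Against the median of all rows, 33 of 43 members were lower under the deposited scaling, under totals of FPKM, of recovered reads and without the 20 most abundant genes, and 34 under upper-quartile scaling. Across these 5 scalings, 24 members were below 0 in all, 7 were above 0 in all, and 12 changed direction.

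**Figure D1:**
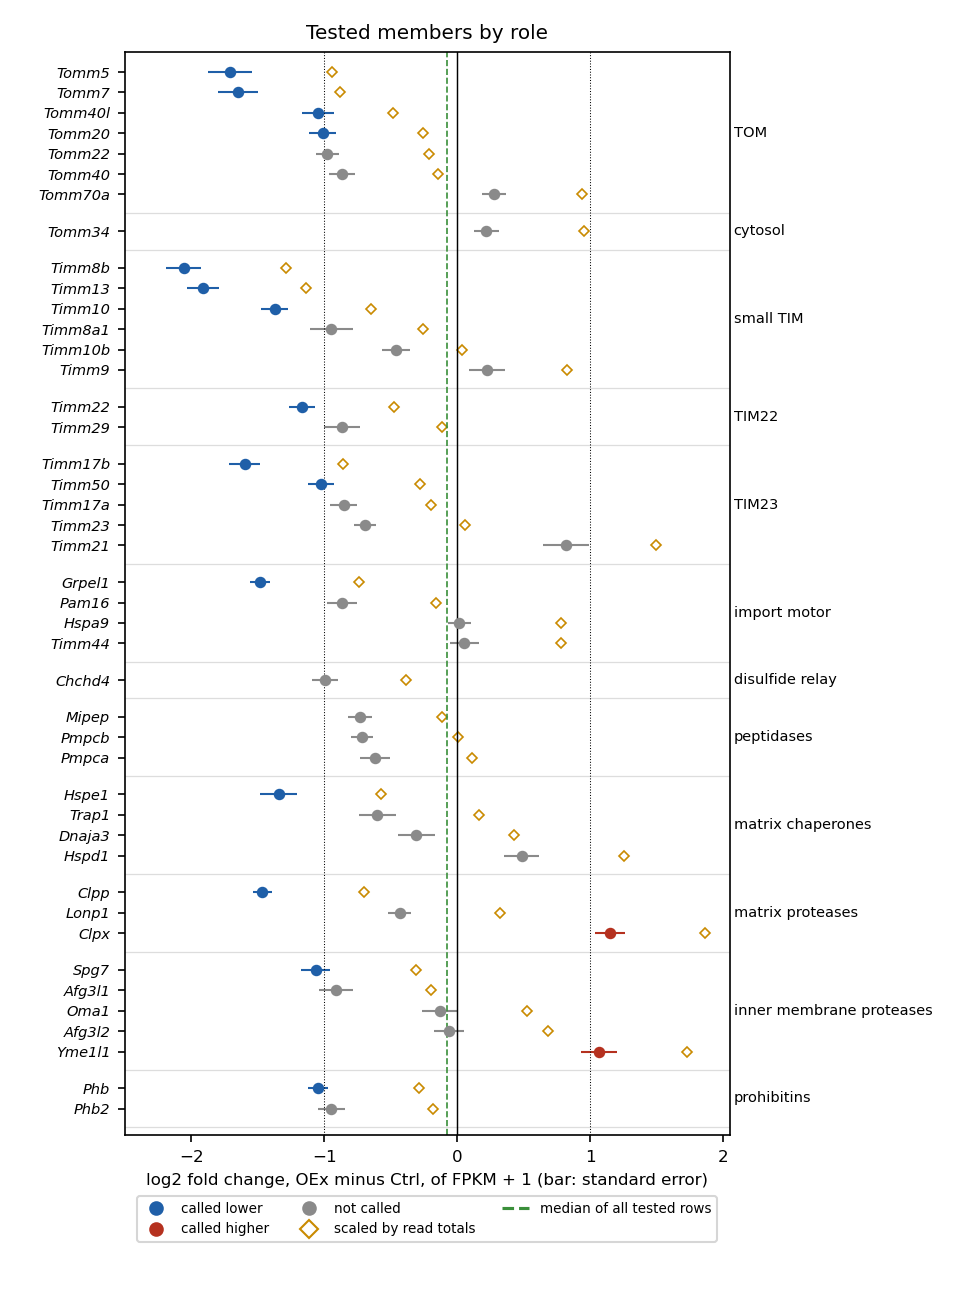
Log2 fold change (OEx minus Ctrl, log2 of FPKM + 1, horizontal axis) of the 43 tested members, grouped by role, with circles and standard error bars for the deposited scaling (blue called lower, red called higher, grey not called), open diamonds for scaling by read totals, a dashed line at the median of all tested rows (-0.078) and dotted lines at the fold criterion. Circles run from -2.06 to 1.15 with 34 below 0, whereas 25 diamonds lie below 0, and within a role group the order of the genes is nearly the same on both scales.

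The outer membrane entry complex was represented by 9 members, 7 of them tested. Called lower were 4 and none was called higher, where 15.7% and 12.9% of all rows were. The median log2 fold change was -1.01 (-0.93 relative to all rows). It was -0.25 when scaled by read totals. The small subunits Tomm5 and Tomm7, which stabilise the Tomm40 pore, had the largest differences. Tomm5 was at 28.0, 27.6 and 21.6 FPKM in OEx mice and 77.1, 76.6 and 107 FPKM in Ctrl mice. Its log2 fold change was -1.71 (SE 0.168, limma FDR 1.94e-04), and the highest OEx mouse lay far below the lowest Ctrl mouse. Tomm7 was at 25.8, 32.8 and 28.8 FPKM against 83.2, 85.3 and 113 FPKM, with a log2 fold change of -1.65 (SE 0.150, limma FDR 1.44e-04). For both genes Ctrl replicate 3 was the highest mouse.

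The receptors divided. Tomm20, which binds presequences and is widely used as a stain for mitochondria, was at 21.5, 20.0 and 24.2 FPKM in OEx mice and 43.7, 43.0 and 48.5 FPKM in Ctrl mice. The groups did not overlap, and the log2 fold change was -1.01 (SE 0.0997, limma FDR 1.98e-04), just past the fold criterion, which it missed without OEx replicate 2 or without Ctrl replicate 3. Tomm70a, the receptor for carrier precursors delivered by cytosolic chaperones, was at 6.95, 6.11 and 6.39 FPKM against 4.95, 5.01 and 5.55 FPKM. All OEx mice were above all Ctrl mice, with a log2 fold change of 0.28 (SE 0.0903, limma FDR 0.0305), which became -0.62 after a correction for GC content and exon length. Of the others, Tomm40l, a second form of the pore, was called at -1.05 but missed the fold criterion without OEx replicate 1 or Ctrl replicate 1. The central receptor Tomm22 (-0.98) and the pore Tomm40 (-0.87) passed the FDR threshold but not the fold criterion. Tomm34, a cytosolic co-chaperone named with the complex, was at 16.5, 14.6 and 17.2 FPKM against 14.3, 12.7 and 14 FPKM, a log2 fold change of 0.22 that did not pass (limma FDR 0.0798). The 200 bases upstream of the annotated Tomm20 start (RefSeq, GRCm38.p6, chr8:126945922-126946121, minus strand) are shown because the study stained this protein. Capitals mark the palindromic E-box CACGTG and the letters CGCGTG, the reverse complement of the HES class C site CACGCG.

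Tomm20 upstream: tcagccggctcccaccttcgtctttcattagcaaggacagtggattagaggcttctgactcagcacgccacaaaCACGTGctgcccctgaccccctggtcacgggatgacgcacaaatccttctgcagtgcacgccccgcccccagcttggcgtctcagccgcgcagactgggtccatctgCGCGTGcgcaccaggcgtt

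The small TIM chaperones held the largest differences of all members. Of 7, 6 were tested and 3 were called lower, where 15.7% of all rows were. The median of the 6 was -1.16 (-1.08 relative to all rows, -0.45 when scaled by read totals). Timm8b was at 45.2, 42.3 and 45.3 FPKM in OEx mice and 173, 168 and 227 FPKM in Ctrl mice. This was a 4.27-fold higher mean in Ctrl mice, with a log2 fold change of -2.06 (SE 0.130, limma FDR 4.61e-05). Timm13, its partner in the hexamer that guides Tim23 precursors, was at 38.6, 39.8 and 37.2 FPKM against 142, 131 and 174 FPKM. Its log2 fold change was -1.91 (SE 0.120, limma FDR 4.56e-05), and neither gene lost its call when any mouse was left out. Both remained called lower in the read-total scaling, at -1.28 and -1.14, and no other member was called lower there. Timm8a1, which pairs with Timm13 in the same way, had a smaller log2 fold change of -0.95 that did not reach the fold criterion.

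The other small TIM hexamer is built from Timm9 and Timm10, and here the partners differed. Timm10 was at 8.73, 9.39 and 7.48 FPKM in OEx mice and 23.4, 22.7 and 24.8 FPKM in Ctrl mice, with a log2 fold change of -1.37 (SE 0.101, limma FDR 7.15e-05). Timm9 was at 3.54, 4.02 and 3.47 FPKM against 2.74, 2.58 and 3.73 FPKM, so that Ctrl replicate 3 overlapped the OEx mice and the difference did not pass (0.23, limma FDR 0.174). Timm10b, a small TIM protein found at the TIM22 complex, was at -0.46 (limma FDR 0.00727). The stretches before the starts of Timm10 (chr2:84826821-84826996, plus strand) and Timm9 (chr12:71136685-71136847, minus strand) and the gap between Timm8b and the divergent gene Sdhd (chr9:50603850-50603900, plus strand) are given for comparison (RefSeq, GRCm38.p6), without bases annotated as exon. Capitals mark TTCCCA, the reverse complement of the RBPJ core TGGGAA, in both hexamer partners. In Timm9 it runs into an E-box CACGTG. In Timm8b capitals mark the ETS and GABP core CCGGAAG. The RBPJ core was in 25.5% of the 300-base windows of all genes and 28.6% of those of members. Further motif letters of those windows lie outside the printed bases, among them CCGGAAG and CACGTG for Timm10.

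Timm10 upstream: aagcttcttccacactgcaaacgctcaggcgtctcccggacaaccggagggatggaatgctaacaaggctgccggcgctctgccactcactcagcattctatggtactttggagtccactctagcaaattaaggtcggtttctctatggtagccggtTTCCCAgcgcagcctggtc

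Timm9 upstream: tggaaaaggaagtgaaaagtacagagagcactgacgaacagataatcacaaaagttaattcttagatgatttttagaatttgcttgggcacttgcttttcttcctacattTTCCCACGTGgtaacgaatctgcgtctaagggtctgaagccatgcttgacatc

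Timm8b upstream: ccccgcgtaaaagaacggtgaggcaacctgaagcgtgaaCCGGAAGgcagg

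Under the deposited scaling, the inner membrane translocases were lower with 1 exception. In the TIM22 complex, which inserts carrier proteins, the channel Timm22 was at 5.21, 4.89 and 4.8 FPKM in OEx mice and 11.7, 11.6 and 14 FPKM in Ctrl mice (log2 fold change -1.17, SE 0.0996, limma FDR 1.16e-04). Its partner Timm29 was at 16.8, 16.9 and 17.1 FPKM against 35.9, 34.4 and 25.6 FPKM. Timm29 did not reach the fold criterion (-0.86), and its log2 fold change was 0.0011 with FPKM scaled by library totals. In the TIM23 complex, 2 of 5 members were called lower, where 15.7% of all rows were. The median of these members was -0.85, or -0.19 when scaled by read totals. Timm17b, 1 of the paired forms of a channel subunit, was at 9.59, 10.9 and 12.4 FPKM against 32.4, 34.6 and 38.5 FPKM (-1.60, SE 0.116, limma FDR 7.01e-05). The other form, Timm17a, was at -0.85 and was not called. After the correction for GC content and exon length, both forms were called lower, Timm17a at -1.46 and Timm17b at -1.12. The presequence receptor Timm50 was at 11.2, 13.7 and 11.5 FPKM against 27.0, 25.0 and 24.7 FPKM. Its log2 fold change of -1.02 missed the fold criterion without OEx replicate 1, OEx replicate 3 or Ctrl replicate 1. The channel Timm23 was at -0.69 and turned to 0.057 when scaled by read totals. Timm21, which links TIM23 to the TOM complex and to respiratory chain assembly, went the other way, at 9.76, 8.41 and 11.8 FPKM against 4.13, 5.11 and 6.46 FPKM. All OEx mice were above all Ctrl mice for Timm21, and its log2 fold change of 0.82 (SE 0.173, limma FDR 0.00533) did not reach the fold criterion. With the GC and length correction, Timm21 was at 0.26.

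In the import motor, 1 of 4 members was called lower, where 15.7% of all rows were. The median of the 4 was -0.43, or 0.31 when scaled by read totals. Hspa9, the mtHSP70 that pulls precursors through the channel, was at 47.1, 43.6 and 50.1 FPKM in OEx mice and 45.4, 48.8 and 44.8 FPKM in Ctrl mice, and the groups overlapped (0.016, limma FDR 0.879). Grpel1, which exchanges its nucleotide, was at 11.4, 10.9 and 11.7 FPKM against 32.7, 33.6 and 34.0 FPKM. With a log2 fold change of -1.48 (SE 0.0723, limma FDR 2.64e-05) it had the lowest FDR of all members. Pam16, which holds the J protein of the motor in check, was at 6.57, 7.33 and 7.37 FPKM against 13.2, 12.4 and 15.8 FPKM (-0.87, limma FDR 5.79e-04). Timm44, the scaffold that anchors the ATPase to the channel, was at 14.3, 14.7 and 15 FPKM against 12.5, 13.7 and 16.3 FPKM, and did not pass (0.053, limma FDR 0.683). Chchd4, the oxidoreductase of the disulfide relay that folds the small TIM proteins, was at 2.32, 2.40 and 2.25 FPKM against 6.04, 4.98 and 5.89 FPKM. Its log2 fold change on the log2(FPKM + 1) scale was -0.99, and its mean was 2.43-fold higher in Ctrl mice.

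The 3 presequence peptidases were lower at an FDR under 0.05, where 36.5% of all rows were, and none reached the fold criterion. The median of the 3 was -0.72, or 0.0040 when scaled by read totals. Mipep, which trims an octapeptide after the first cut, was at 2.69, 2.59 and 2.70 FPKM in OEx mice and 5.34, 5.25 and 4.65 FPKM in Ctrl mice (-0.73). The catalytic subunit Pmpcb was at 8.92, 8.85 and 9.20 FPKM against 16.4, 15.7 and 14.2 FPKM (-0.72), and its partner Pmpca was at -0.62.

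Among the matrix chaperones, the subunits of the folding chamber differed in opposite directions. Hspe1, the HSP10 lid, was at 53.0, 57.9 and 49.5 FPKM in OEx mice and 123, 125 and 166 FPKM in Ctrl mice, with a log2 fold change of -1.34 (SE 0.139, limma FDR 2.40e-04). Hspd1, the HSP60 barrel, was at 71.9, 64.4 and 60.0 FPKM against 43.8, 41.0 and 55.3 FPKM. All OEx mice were above all Ctrl mice, but the log2 fold change of 0.49 (SE 0.135, limma FDR 0.0169) did not reach the fold criterion. The directions of Hspd1 and Hspe1 were the same under all 5 scalings. Trap1, the HSP90 of the matrix, was at 31.1, 31.1 and 31.4 FPKM against 53.7, 52.8 and 38.5 FPKM (-0.60), and was at 0.16 when scaled by read totals. Dnaja3, a J protein, did not pass (-0.31, limma FDR 0.0919).

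Hspd1 and Hspe1 lie head to head on chromosome 1, with RefSeq starts 216 bases apart. Their annotated first exons overlap on opposite strands, and the annotation names 5 pseudogenes of Hspd1 and 6 of Hspe1, so reads could be split between copies. Whether counting used strand is not given in the sources used here. The shared stretch is annotated as Hspd1 exon, so only the 30 bases that hold its motif letters are shown (RefSeq, GRCm38.p6, chr1:55088057-55088086, plus strand). Capitals mark the heat shock element pair GAANNTTC joined to the ETS and GABP core CCGGAAG on both strands.

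Hspe1 and Hspd1 shared stretch: cgttctaGAACCTTCCGGAAGgccccgcgc

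The proteases of the matrix gave the widest contrast between partners. CLPXP is a barrel of Clpp peptidase subunits capped by Clpx unfoldase rings. Clpp was at 29.9, 30.6 and 28.8 FPKM in OEx mice and 83.4, 81.2 and 87.1 FPKM in Ctrl mice, with a log2 fold change of -1.46 (SE 0.0743, limma FDR 2.90e-05). Clpx was at 19.9, 18.4 and 17.8 FPKM against 8.03, 6.76 and 8.98 FPKM. It was the member with the highest log2 fold change, 1.15 (SE 0.114, limma FDR 2.03e-04), and was called in all 6 fits that left out a mouse, although with the GC and length correction it was at 0.95. Lonp1, the soluble ATP-dependent protease, was at -0.43 (limma FDR 0.00361) and at 0.32 when scaled by read totals. The 200 bases before the starts of Clpp (chr17:56990064-56990263, plus strand) and Clpx (chr9:65294060-65294259, plus strand) are shown because the partners differed in direction (RefSeq, GRCm38.p6). Capitals mark CGCGTG in Clpp, the reverse complement of CACGCG, and the NRF1 core GCATGCGC in Clpx. The printed bases are only part of the 300-base windows searched below. In those windows CACGCG, read on either strand, was found for both genes, and CCGGAAG for Clpp.

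Clpp upstream: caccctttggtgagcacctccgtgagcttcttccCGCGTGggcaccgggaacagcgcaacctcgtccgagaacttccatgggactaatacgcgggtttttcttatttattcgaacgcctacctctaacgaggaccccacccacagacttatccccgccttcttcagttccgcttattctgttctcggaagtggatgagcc

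Clpx upstream: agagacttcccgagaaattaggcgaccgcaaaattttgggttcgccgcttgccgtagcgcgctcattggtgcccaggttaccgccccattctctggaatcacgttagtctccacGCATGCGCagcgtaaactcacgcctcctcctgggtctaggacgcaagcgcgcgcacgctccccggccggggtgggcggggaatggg

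The inner membrane proteases had a median of -0.13 (-0.05 relative to all rows) and values on both sides of 0. Yme1l1, the AAA protease that faces the intermembrane space, was at 8.79, 8.6 and 10.8 FPKM in OEx mice and 3.71, 3.48 and 4.69 FPKM in Ctrl mice. Its log2 fold change of 1.07 (SE 0.133, limma FDR 5.15e-04) missed the fold criterion without OEx replicate 3 or without Ctrl replicate 2, and was 0.064 after the GC and length correction. Spg7, a subunit of the AAA protease that faces the matrix, was at 15.4, 15.9 and 18.1 FPKM against 39.0, 36.1 and 31.5 FPKM (-1.06, SE 0.11, limma FDR 2.39e-04). The call of Spg7 was lost without Ctrl replicate 1. The related subunit Afg3l1 was at -0.91, whereas Afg3l2, which shares complexes with Spg7, did not pass (-0.060, limma FDR 0.662). Oma1, a stress-activated protease, did not pass either (-0.13, limma FDR 0.409). The prohibitins form a ring around the matrix-facing proteases. Phb was at 23.2, 24.7 and 25.2 FPKM against 53.2, 49.7 and 51.1 FPKM (-1.05, SE 0.0763, limma FDR 7.06e-05), and Phb2 was at 39.2, 41.8 and 42.0 FPKM against 84.8, 85.8 and 70.3 FPKM (-0.95, limma FDR 2.82e-04).

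**Figure D2:**
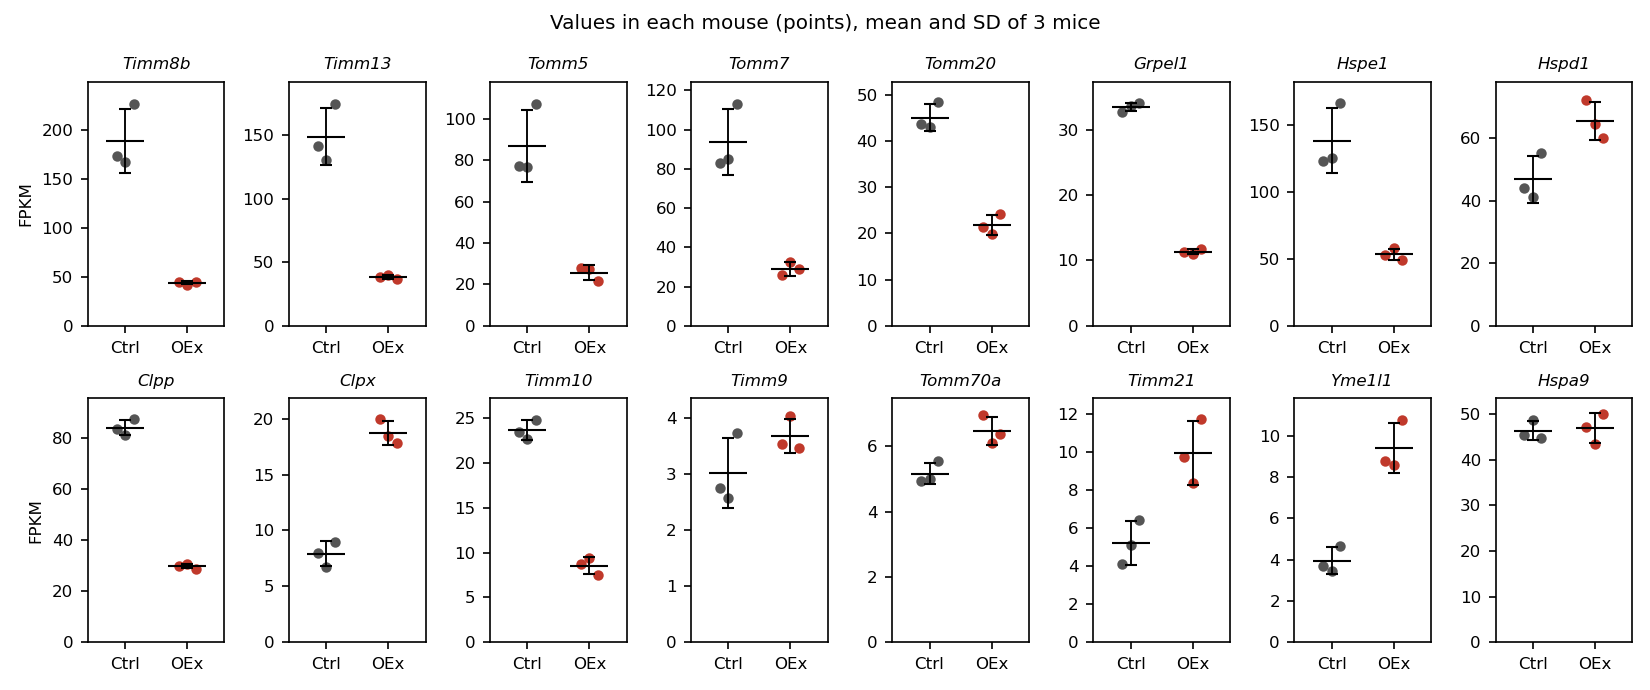
FPKM (vertical axes from 0, each panel with its own scale) of 16 members in each of the 3 Ctrl mice (grey points) and 3 OEx mice (red points), with the mean and SD of each group in black. The groups are apart for all genes shown but Timm9, where Ctrl replicate 3 at 3.73 FPKM lies among the OEx mice, and Hspa9, where the Ctrl mice, from 44.8 to 48.8 FPKM, lie within the OEx range; relative to read totals both of these are higher in OEx mice.

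The 4 members below the filter had few reads, and no comparison was made. Tomm6, a small TOM subunit, had 7, 5 and 2 reads in OEx mice and 1, 1 and 0 in Ctrl mice, and shares exons with Gm21981, Tomm6os and Usp49, so the level of Tomm6 is uncertain. Tomm6os had 18, 26 and 31 reads against 16, 9 and 7. Tomm20l, a gene related to the receptor, had 0, 3 and 6 reads against 6, 0 and 7, and Timm8a2 had 2 in each OEx mouse and 0 in each Ctrl mouse. Tested members had 81 to 4294 reads per mouse with a median of 925, and 19 of the 43 share exon bases with another annotated gene, among them Timm8b with Nkapd1, Timm13 with Tmprss9 and Grpel1 with Tada2b on the opposite strand.

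Ratios of partner transcripts within a mouse do not depend on the scaling between mice. For this, 13 pairs of genes that act together were compared, and the pairs and the order of the genes in each were chosen after the values had been seen, so the ratios are given without a test. The ratio of Clpx to Clpp averaged 0.629 in OEx mice and 0.0939 in Ctrl mice, a difference of 2.74 on the log2 scale. The ratio of Hspd1 to Hspe1 averaged 1.22 against 0.339, a difference of 1.85, so that the barrel transcript was above the lid transcript in OEx mice and below it in Ctrl mice. The ratio of Timm9 to Timm10 differed by 1.77, that of Hspa9 to Grpel1 by 1.58 and that of Tomm70a to Tomm20 by 1.37. The differences were 1.05 for Afg3l2 to Spg7 and 1.01 for Timm44 to Pam16. They were under 1 for Timm8a1 to Timm13 (0.86), Timm17a to Timm17b (0.67) and Timm23 to Timm50 (0.36). The groups did not overlap in these 10 pairs, and the direction carries no information because the order was chosen. Single rows did not overlap in 38.9% (OEx lower) and 33.4% (OEx higher) of all tested. Both shares count together here, so a lack of overlap was common among all rows. No share was computed for ratios of other genes. The groups overlapped for Tomm40 to Tomm22 (difference 0.064), Pmpca to Pmpcb (0.12) and Phb to Phb2 (-0.11). The log2 ratio of Phb to Phb2 averaged -0.75 ± 0.013 (SD, n = 3) in OEx mice and -0.64 ± 0.17 in Ctrl mice. All these ratios are without the correction for GC content and length, which acts on each gene. With it, the log2 fold changes of Clpx and Clpp were 0.95 and -0.65, and those of Hspd1 and Hspe1 were 0.60 and -1.18. Those of Timm9 and Timm10 were -0.17 and -0.70. Hspa9 and Grpel1 were at -0.17 and -1.47, and Tomm70a and Tomm20 at -0.62 and -1.30. Afg3l2 and Spg7 were at -0.38 and -0.73, Timm44 and Pam16 at 0.47 and -0.34, and Timm23 and Timm50 at -0.26 and -0.38. Timm8a1 was at -0.50, and Timm13, still called lower, was below it. Only Clpx and Clpp, Hspd1 and Hspe1, and Hspa9 and Grpel1 then lay more than 1 apart. Timm17a and Timm17b were at -1.46 and -1.12, so their order was reversed.

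**Figure D3:**
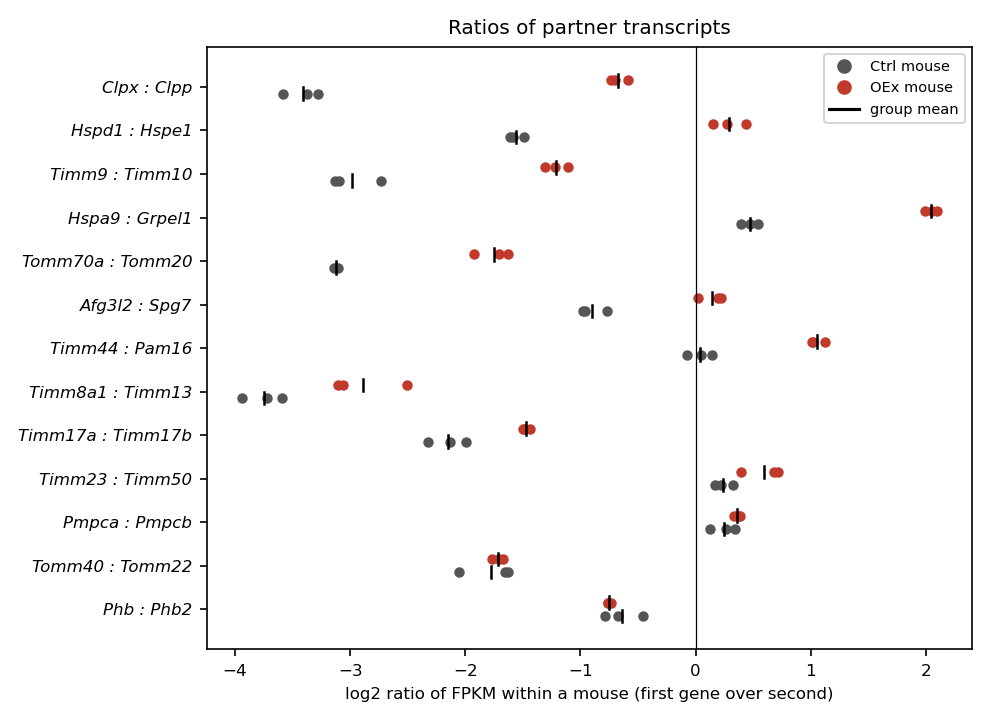
Log2 ratio of the FPKM of the first gene to that of the second within each mouse (horizontal axis) for 13 pairs, with OEx mice in red, Ctrl mice in grey and group means as black bars. The gene placed first in each pair was chosen with the values known. The groups are apart in 10 pairs, by 2.74 for Clpx to Clpp down to 0.36 for Timm23 to Timm50, and overlap in the last 3. Within-mouse ratios are the same under every scaling between mice, but not under the correction for GC content and length.

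Differences also varied with gene length. Of the 10 members with exons of up to 2000 bases in total, 7 were called lower and the median was -1.42, where 28.8% of all rows of that length were called lower with a median of -0.50. Of the 17 members from 2000 to 4000 bases, 5 were called lower (29.4%), where 19% of all such rows were. Of the 16 longer members, 3 were called lower (18.8%) with a median of -0.72, where 6.81% of all such rows were called lower and their median was 0.20. Across the 43 members, the log2 fold change and log2 exon length had a Pearson r of 0.563 and a Spearman rho of 0.491, against 0.134 and 0.283 across the 12463 tested rows with an annotated length. These are correlations across genes of the same 6 libraries, and genes are not independent replicates. After a correction for GC content and length, 11 members were called lower, 8 of them among the 15, and none higher, where 9.94% and 11.1% of all rows were, and the median was -0.56. Called lower with and without the correction were, among others, Timm8b at -1.57, Tomm7 at -1.60, Grpel1 at -1.47 and Tomm20 at -1.30, whereas Clpp was at -0.65 and Timm10 at -0.70. The part of length and base composition in these differences was not tested further.

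**Figure D4:**
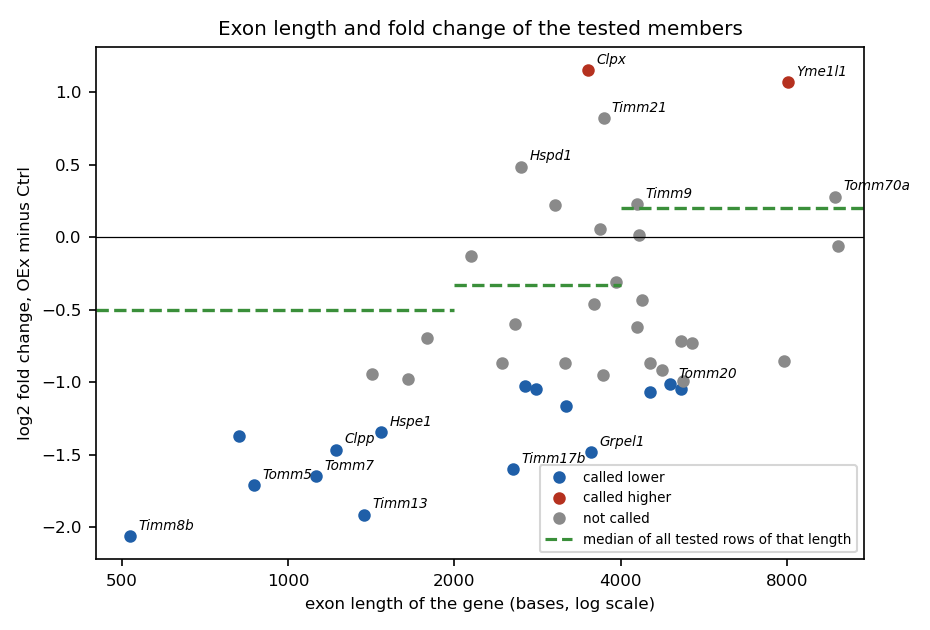
Log2 fold change (OEx minus Ctrl, vertical axis) of the 43 tested members against the exon length of the gene (bases, log scale), coloured by call, with dashed lines at the median of all tested rows up to 2000, from 2000 to 4000 and above 4000 bases (-0.50, -0.33 and 0.20). The members up to 2000 bases all lie below 0, and both called-higher members are longer than that; when scaled by read totals the median of all rows is 0.56 and 1 of the short members, Timm23, is above 0.

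Other genes that act with the members were taken from lists of known function. Of all tested rows, 15.7% were called lower and 12.9% higher. Their median was -0.078, or 0.56 when scaled by read totals. Among 18 further import, sorting and processing genes, 7 were called lower and 1 higher, and the median was -0.67, or -0.065 when scaled by read totals. Romo1, a small inner membrane protein, was at 36.7, 41.6 and 41.2 FPKM in OEx mice and 120, 116 and 183 FPKM in Ctrl mice (-1.75). Gfer, which reoxidises Chchd4, was at -1.39, and Immp1l, an inner membrane peptidase, at -1.33. Among 11 other proteases and scaffold genes of the cristae, 2 were called lower, with a median of -0.63 that was 0.032 when scaled by read totals. These were Chchd6 (-1.80), a cristae junction subunit, and Parl (-1.01), a rhomboid protease.

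On the deposited scale, the tested genes listed as raised by a mitochondrial stress response were lower in OEx mice. Their median was the lowest of the lists under the deposited scaling and by read totals. Whether stress of the mitochondria itself differed between the groups was not tested. Of 12 listed, 10 were tested and 9 were called lower, where 15.7% of all rows were. Ddit3 had no row with a unique symbol and was not tested. The median of the 10 was -2.31, or -1.62 when scaled by read totals. Chac1, a glutathione-degrading enzyme, was at 1.5, 1.71 and 1.32 FPKM in OEx mice and 68.0, 66.9 and 67.2 FPKM in Ctrl mice (-4.77). Gdf15, a secreted stress factor, was at -4.59, and the asparagine synthetase Asns at -3.99. Fgf21 was listed at 0 in all 6 mice. Among 20 cytosolic chaperones, 3 were called lower and 1 higher, where 15.7% and 12.9% of all rows were. Their median of -0.25 became 0.52 when scaled by read totals, where that of all rows became 0.56. Hspa1a was at 5.68, 5.03 and 3.34 FPKM against 13, 11.3 and 51.9 FPKM (-1.90), and Ctrl replicate 3 was far above the other Ctrl mice. Its near-identical copy Hspa1b was at -1.58, and reads of the copies may be split between them. Cct7, a subunit of the cytosolic chaperonin, was at -1.28 (limma FDR 3.48e-05).

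**Figure D5:**
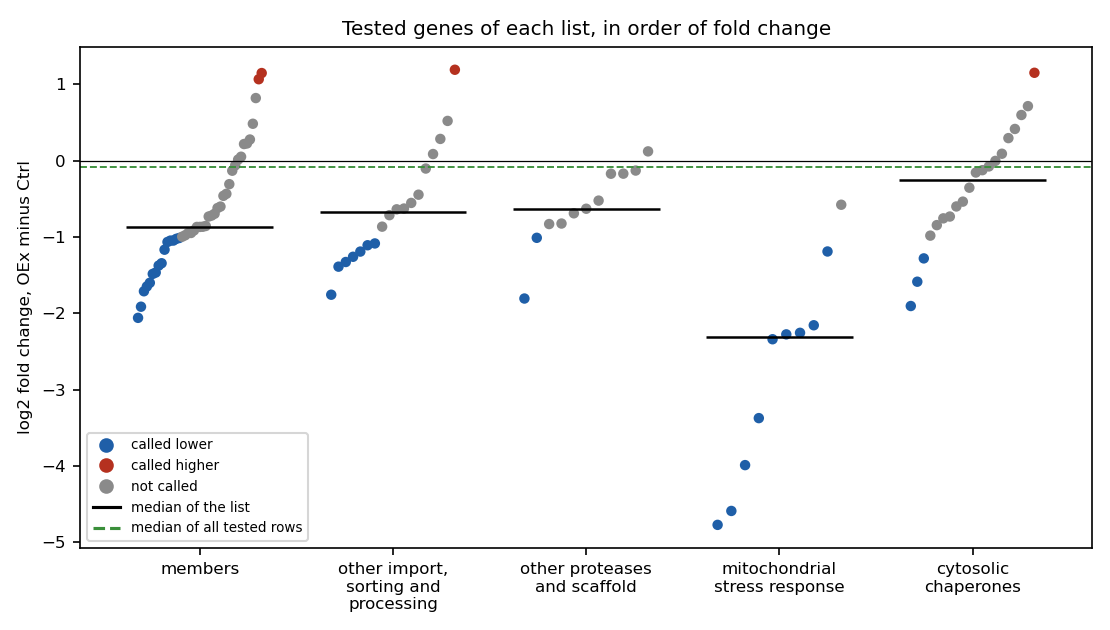
Log2 fold change (OEx minus Ctrl, vertical axis) of the tested members and of the tested genes of 4 other lists, ordered within each list and coloured by call, with a bar at the median of each list and a dashed line at the median of all tested rows (-0.078). Medians are -0.87, -0.67, -0.63, -2.31 and -0.25 from left to right. When scaled by read totals they are -0.16, -0.065, 0.032, -1.62 and 0.52, where the median of all rows is 0.56.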

How the data were processed

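Total RNA of whole AP was sequenced (TruSeq libraries, Illumina) from 3 OEx and 3 Ctrl mice. As deposited by the authors, values are in FPKM with a table for each mouse, and the submitters' processing notes name CASAVA, HISAT2 2.0.5, featureCounts 1.5.0-p3 and StringTie 1.3.3b without their roles. The genome build and annotation are not given in the sources used here. Symbols were matched to GENCODE (GRCm38), which placed 53710 rows, and exon lengths from it turned 96.9% to 97.5% of values under 1000 reads into whole reads (tolerance 0.05). Coordinates are on that build. A floor of 3 reads is 0.161 to 0.203 CPM and covers counting error only. The FPKM denominators differed by at most 0.346% from size factors of the median-of-ratios kind. Groups were fitted with limma 3.58.1 (R 4.3.3, eBayes with trend, group as the only term) on log2(FPKM + 1) for rows with a mean of 1 FPKM or more, which understates changes of low genes. Fold changes and FDR values were computed here over all 12833 rows. In simulated data, 200 of 12478 genes were given a log2 fold change of 2 in either direction. The fit recovered 100% of them and called 1 of 12278 unchanged genes. The simulated replicates were independent and equally spread, unlike these mice, so the simulation cannot vouch for the FDR values given here. Alternatives were 4 other scalings, other pseudocounts, filters and thresholds, each mouse left out, a replicate block, no trend, limma-voom on recovered reads, and lowess corrections (span 0.3) for GC content and length. RefSeq upstream sequences (GRCm38.p6) were found for 42 of 47 members. Scripts ran in Python 3.11.15 with matplotlib 3.10.9, pandas 2.3.3, numpy 2.4.6 and scipy 1.17.1.

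The members, role groups and lists of other genes were chosen with earlier results of these data known. Values per mouse are given for Tomm20, the 2 tested members with the largest absolute log2 fold change in each role group, tested members at or above 0 and members under the filter with a value above 0, and up to 3 genes from each other list. Timm10 and the pairs of partners were added after their values were seen. Lace1 and Ddit3 of the lists had no row with a unique symbol and were not tested.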

Additional observations from a re-analysis of the deposited data

How the results depend on the processing

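The scaling between mice had the largest effect. Called lower and higher were 15 and 2 members, and 11 of 12 role groups had a median below 0. Of the other genes of the pathway, 21 and 2 were called lower and higher (all rows: 15.7% and 12.9%). With FPKM library totals these were 2 and 7 members, 6 groups, and 9 and 8 other genes, with a member median of -0.051 (all rows: 4.78% lower, 39.6% higher). Without the 20 most abundant genes in the totals they were 3 and 4, 7 groups, and 10 and 6, with a median of -0.26 (all rows: 5.49% and 27.3%). With totals of recovered reads, an alternative chosen after the data had been seen, they were 2 and 4, 6 groups, and 9 and 7, with a median of -0.16 (all rows: 4.59% and 30.6%). Upper-quartile scaling gave 23 and 1 members (all rows: 19.4% and 10.6%). FDR alone gave 31 and 5 members and 40 and 7 other genes (all rows: 36.5% and 30.7%), and a mean of at least 5 FPKM left 1 other gene called higher. The GC and length correction, with or without the replicate block, called 0 members and 0 other genes higher, with a median of -0.56.

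Directions reversed with FPKM library totals for Timm29 (0.0011), Pmpcb (0.12), Timm10b (0.15), Timm23 (0.18), Pmpca (0.24), Trap1 (0.29), Lonp1 (0.45), Dnaja3 (0.56), Oma1 (0.70) and Afg3l2 (0.82). With read totals they did for Pmpcb (0.0040), Timm10b (0.040), Timm23 (0.057), Pmpca (0.11), Trap1 (0.16), Lonp1 (0.32), Dnaja3 (0.43), Oma1 (0.53) and Afg3l2 (0.68). Without the 20 most abundant genes they did for Pmpca (0.0042), Trap1 (0.050), Lonp1 (0.21), Dnaja3 (0.32), Oma1 (0.43) and Afg3l2 (0.57), and with upper quartiles for Timm44 (-0.093) and Hspa9 (-0.14). The GC and length correction, with or without the block, reversed Timm9 (-0.17), Hspa9 (-0.17), Tomm70a (-0.62) and Oma1 (0.19). The cause was not tested beyond the shift of all rows.

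Leaving out each mouse gave 13 to 18 members called lower (18 without Ctrl replicate 2). Called higher were 1 to 2 members (1 without OEx replicate 3 or Ctrl replicate 2). In these fits, 1987 to 2043 of all 12833 rows were called lower and 1614 to 1726 higher. Called lower in all 6 fits were 11 members. Near 0, Timm44 turned to -0.028 without Ctrl replicate 1, Afg3l2 to 0.016 without Ctrl replicate 2 (range -0.18 to 0.016), and Hspa9 to -0.0069 without Ctrl replicate 3 and -0.031 without OEx replicate 3 (range -0.031 to 0.067). Deviations from the group mean correlated at -0.230 on average for same-numbered mice and at 0.0951 for other pairs. Deviations from a mean of 3 mice are tied to each other, so these values cannot decide whether the numbers pair the mice. With the replicate block, 15 members were called lower and 2 higher, and 20 other genes lower. Of all 12833 rows, 1986 were then called lower and 1611 higher. Another pseudocount, no filter, no trend and limma-voom kept all counts within 1.5 times, with 15 to 18 members called lower.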

Other observations

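The 300-base RefSeq windows around the starts of 42 members (GRCm38.p6) had a median GC content of 59.8% and 22 CpG, against 52.7% and 7 in 27025 promoter windows of all genes. Searched on both strands, the ETS and GABP core CCGGAAG was in 17 member windows (40.5%) and 9.12% of all windows. The HES class C site CACGCG was in 18 (42.9%) against 9.36%, the E-box CACGTG in 9 (21.4%) against 7.24%, and the NRF1 core GCATGCGC in 3 (7.14%) against 2.80%. The RBPJ core TGGGAA was in 12 member windows (28.6%) and 25.5% of all windows. The letters GAANNTTC were in 2 (4.76%), Hspe1 and Timm9, against 7.95%. Only the first listed window of each gene was counted, and that of Hspd1 did not hold these letters. The CHOP and ATF composite site TTGCATCA was in none, against 0.929%. These shares are descriptions of letters in windows that differ in base composition.

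Of the members, 12 start within 1000 bases of a divergent coding gene. Sdhd, 52 bases from Timm8b, had a log2 fold change of -1.40, and Pqbp1, 67 bases from Timm17b, had -0.97. Arfip2, 29 bases from Timm10b, had -1.31 where Timm10b had -0.46. Opposite directions were seen for Catsperd (1.6), 144 bases from Lonp1 (-0.43), and for Parg (0.84), 58 bases from Timm23 (-0.69), although Lonp1 and Timm23 are above 0 when scaled by read totals.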
